A study of Mus musculus with 8 samples.

Results

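The 10 genes described here are components of the Wnt pathway, taken by name from a list that was drawn up with earlier results of these data known. They are the ligands *Wnt7a* and *Wnt7b*, the receptors *Fzd1* and *Fzd3*, the co-receptor *Lrp6*, the secreted inhibitor *Sfrp1*, the nuclear factors *Lef1* and *Tcf7l2* and the target genes *Axin2* and *Nkd1*. The gene table held 54307 gene identifiers, all 10 genes were found in it, and all 10 passed the filter on low counts that left 17669 genes. Bulk RNA-sequencing (RNA-seq) libraries came from periventricular tissue with the ventricular-subventricular zone (V-SVZ), dissected on 1 side of the brain. The mice were 8 weeks of age, with 4 in the *Lrig1* KO group and 4 in the WT group. All mice were of the 129-Elite strain. The KO mice were homozygous for a CreERT2 cassette placed in exon 1 of *Lrig1*, which makes a constitutive knockout, and the WT mice were littermates that carried the wild-type allele on both copies. There were 2 female and 2 male KO mice and 3 female and 1 male WT mice, the male being WT replicate 2. The libraries were made from polyA-selected RNA. The question addressed here is whether the level of the Wnt genes differed between KO and WT tissue.

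Wnt proteins are secreted, lipid-modified ligands that bind a Frizzled receptor together with the co-receptor LRP5 or LRP6 at the cell surface. Binding stops the AXIN, APC and GSK3 complex from marking β-catenin for degradation, and β-catenin then enters the nucleus and joins the TCF and LEF proteins on their target genes. In the adult V-SVZ, Wnt signalling is known to act on the proliferation of neural stem cells (NSCs) and on the production of neuroblasts, and several targets of the pathway, *Axin2* and *Nkd1* among them, encode its own inhibitors.

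Estimated gene counts summed to between 47887437 and 74482334 per mouse, and the lowest count of any of the 10 genes in any mouse was 165, for *Lef1*. *Lrig1*, the targeted gene, was at 45.5, 13.5, 41.4 and 34.3 CPM (read counts normalised to the size of each library) in WT replicates 1 to 4 and at 1.41, 4.15, 1.17 and 2.96 CPM in KO replicates 1 to 4. The groups did not overlap for *Lrig1*, and the log2 fold change was -3.80 (SE 0.52, adjusted p = 0.286 in edgeR; exact permutation p = 0.0286, the smallest that 4 mice against 4 allow). Markers of the tissue were present, with neuroblast markers summing to between 427.3 and 511.1 CPM, markers of NSCs and progenitors to between 75.7 and 109.9 CPM and ependymal markers to between 26.4 and 62.3 CPM. Of the 14 marker lists, that of cortical excitatory neurons had the widest range between mice as a ratio of highest to lowest. The cortical sum was 1996 CPM in WT replicate 2, 987.3 in KO replicate 3 and 538.5 in KO replicate 1, the 3 males, and between 127.3 and 421.5 CPM in the 5 females. Markers of striatal medium spiny neurons summed to 2851 CPM in WT replicate 2 and to between 4428 and 8846 CPM in the other 7 mice. No list had a gene at 0 in every mouse. Because the 3 males were also the 3 mice of the highest cortical sums, sex and the cortical content of the dissection cannot be told apart here. In bulk tissue, a lower value from fewer cells of a type and one from less RNA per cell also cannot be told apart.

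None of the 10 Wnt genes was differentially expressed between KO and WT mice. The test was edgeR's quasi-likelihood test without covariates, adjusted by Benjamini-Hochberg over the 17669 genes, with a threshold of an adjusted p under 0.1. Among all genes tested, 1 passed (0.00566%), and it was not *Lrig1* (adjusted p = 0.286 in edgeR). The paper, which used DESeq2, reports *Lrig1* as the gene lowered with the most significance. No Wnt gene had an unadjusted p under 0.05 in the edgeR fit without covariates, against 1.88% of all genes. None had KO and WT mice that did not overlap, against 1.53% of all genes, so that a count of 0 among 10 genes is near the background. With sex as a covariate, *Wnt7b* had an unadjusted p of 0.027 in edgeR and 0.013 in DESeq2 (adjusted p = 0.653 and 0.375). In DESeq2 with sex, *Tcf7l2* had a log2 fold change of 0.62 (unadjusted p = 0.023, adjusted p = 0.487). In edgeR, *Nkd1* had an unadjusted p of 0.043 without WT replicate 1 and 0.040 without KO replicate 3. DESeq2, with or without sex as a covariate, and limma on log2 TPM also called 0 of the 10. The median log2 fold change of the 10 genes was -0.02 (median of all genes -0.0009) and their median absolute log2 fold change was 0.04, beside 0.09 for all genes. All adjusted p-values of the 10 genes were 0.9998. For the single genes, an exact two-sided permutation test over the mice gave p between 0.143 and 0.971, where 4 mice against 4 can give 0.0286 at the smallest.

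**Figure D1:**
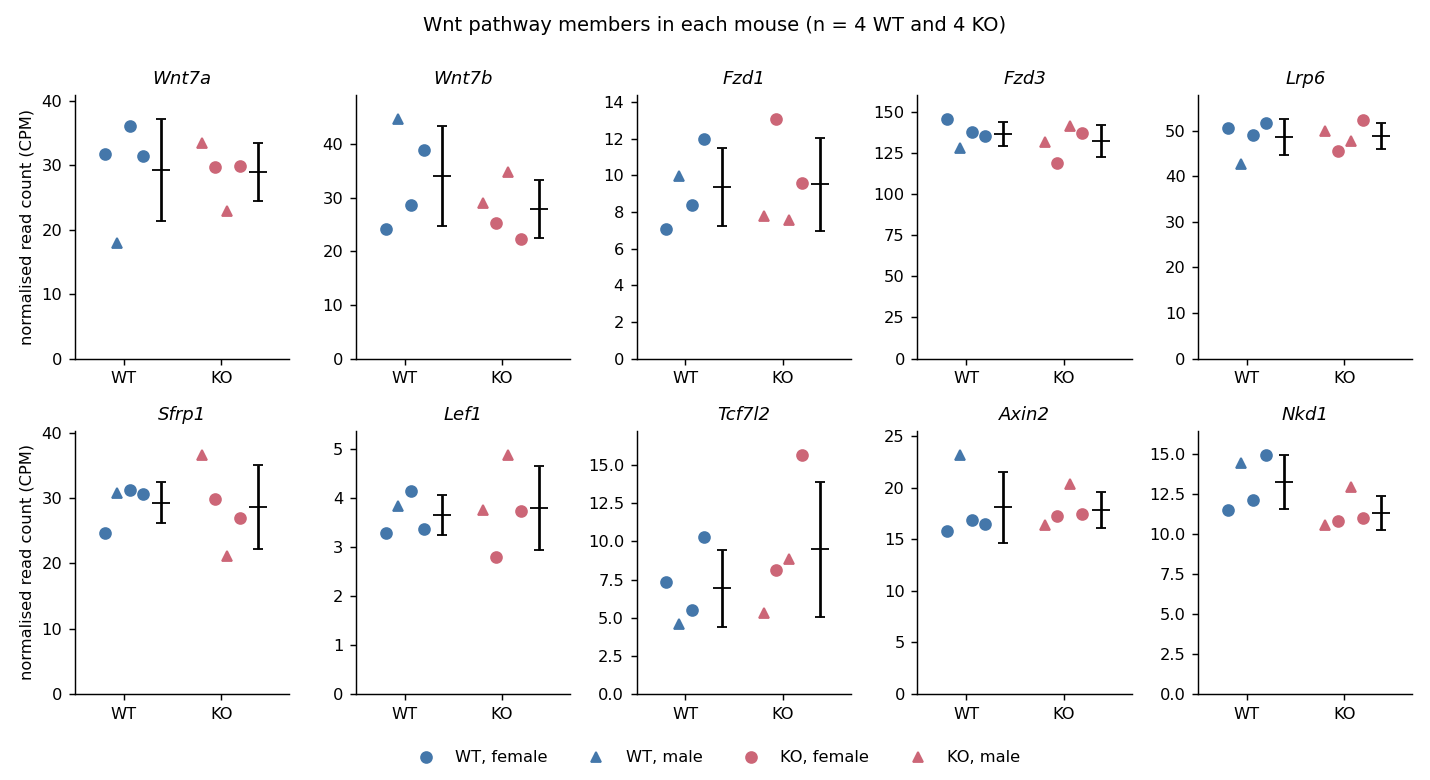
Normalised read counts (CPM, linear axes from 0) of the 10 Wnt genes in each of the 4 WT and 4 KO mice, with the mean and SD of each group beside its points; triangles are males and circles females. WT and KO mice overlap for every gene, and WT replicate 2, the only WT male, is lowest for *Wnt7a* (17.9 CPM) and highest for *Wnt7b* (44.6 CPM) and *Axin2* (23.2 CPM).

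Of the ligands, *Wnt7a* (ENSMUSG00000030093.8) and *Wnt7b* (ENSMUSG00000022382.16) encode closely related Wnt proteins that can signal through β-catenin. *Wnt7a* was at 31.7, 17.9, 36.1 and 31.4 CPM in WT replicates 1 to 4 and at 33.5, 29.7, 22.9 and 29.8 CPM in KO replicates 1 to 4. The 2 low values, 17.9 and 22.9 CPM, came from WT replicate 2 and KO replicate 3, and the other 6 mice lay between 29.7 and 36.1 CPM. The group means were 29.3 ± 7.9 CPM in WT and 28.96 ± 4.4 CPM in KO (SD, n = 4 each), a log2 fold change of -0.01 (SE 0.21, 95% interval -0.49 to 0.46). *Wnt7b* was at 24.2, 44.6, 28.7 and 38.8 CPM in the WT mice and at 28.9, 25.3, 34.7 and 22.2 CPM in the KO mice. Its highest values were in WT replicates 2 and 4, but WT replicate 1 lay below 3 of the 4 KO mice. The log2 fold change of *Wnt7b* was -0.29 (SE 0.21, 95% interval -0.77 to 0.18, exact permutation p = 0.314). It was -0.14 without WT replicate 2 and -0.43 without WT replicate 1, the ends of the range with 1 mouse left out.

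*Fzd1* (ENSMUSG00000044674.7) and *Fzd3* (ENSMUSG00000007989.8) encode Frizzled receptors, the second of which is best known for its part in planar cell polarity and axon guidance. *Fzd1* was at 7.05, 9.93, 8.35 and 11.99 CPM in WT and at 7.79, 13.1, 7.53 and 9.60 CPM in KO mice. Low and high mice were present in both genotypes, and the log2 fold change was 0.02 (SE 0.22, 95% interval -0.47 to 0.52). *Fzd3* had the smallest SE of the 10 genes and more counts than any of them. It was at 145.6, 128.0, 138.1 and 135.5 CPM in WT and at 131.5, 118.9, 141.4 and 137.2 CPM in KO mice, a log2 fold change of -0.05 (SE 0.07, 95% interval -0.22 to 0.12). *Lrp6* (ENSMUSG00000030201.16), the co-receptor needed for β-catenin signalling, was at 50.7, 42.8, 49.1 and 51.7 CPM in WT and at 49.9, 45.6, 47.9 and 52.3 CPM in KO mice. The lowest *Lrp6* value again came from WT replicate 2, and the log2 fold change was 0.01 (SE 0.08, 95% interval -0.17 to 0.19). For *Fzd3* and *Lrp6* the intervals were the narrowest, and left out log2 fold changes below -0.22 or above 0.19.

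*Sfrp1* (ENSMUSG00000031548.8), which encodes a secreted protein with a Frizzled-like domain that binds Wnt ligands, was at 24.6, 30.8, 31.2 and 30.6 CPM in WT and at 36.7, 29.9, 21.2 and 26.9 CPM in KO mice. The KO mice spanned the whole WT range and passed it on both sides, with a log2 fold change of -0.03 (SE 0.16). *Lef1* (ENSMUSG00000027985.15) and *Tcf7l2* (ENSMUSG00000024985.21) encode DNA-binding partners of β-catenin. *Lef1* was at 3.27, 3.83, 4.13 and 3.36 CPM in WT and at 3.75, 2.79, 4.88 and 3.74 CPM in KO mice, with a log2 fold change of 0.05 (SE 0.18). By TPM, which allows for transcript length, it was the lowest of the 10 genes in all 8 mice. *Tcf7l2*, which is strongly expressed in the adult thalamus and in oligodendrocytes that are maturing, was at 7.32, 4.62, 5.48 and 10.3 CPM in WT and at 5.29, 8.12, 8.83 and 15.7 CPM in KO mice. It had the largest SE of the 10 genes, and its log2 fold change was 0.45 (SE 0.35, 95% interval -0.35 to 1.25, exact permutation p = 0.400). With 1 mouse left out, the log2 fold change of *Tcf7l2* ranged from 0.10 without KO replicate 4, the mouse at 15.7 CPM, to 0.71 without WT replicate 4, the highest WT mouse, and it was 0.30 without WT replicate 2. The summed markers of thalamic and habenular neurons were at 60.05, 50.75, 47.25 and 95.42 CPM in WT replicates 1 to 4. In KO replicates 1 to 4 they were at 53.63, 121.2, 59.78 and 78.1 CPM. The part of these neurons in the *Tcf7l2* values was not tested.

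*Axin2* (ENSMUSG00000000142.16) and *Nkd1* (ENSMUSG00000031661.13) are negative feedback targets, *Axin2* as a scaffold of the complex that degrades β-catenin and *Nkd1* as a protein that binds Dishevelled. *Axin2* was at 15.8, 23.2, 16.9 and 16.5 CPM in WT and at 16.4, 17.3, 20.4 and 17.5 CPM in KO mice. WT replicate 2 and KO replicate 3 were the 2 highest, the other 6 mice lay between 15.8 and 17.5 CPM, and the log2 fold change was -0.02 (SE 0.14, 95% interval -0.33 to 0.29). *Nkd1* was at 11.5, 14.4, 12.1 and 14.9 CPM in WT and at 10.6, 10.8, 12.9 and 10.99 CPM in KO mice. In the fit without covariates it came closest to a difference among the 10 genes, with 3 of the 4 KO mice below all 4 WT mice. Its log2 fold change was -0.23 (SE 0.12, 95% interval -0.49 to 0.04). KO replicate 3 lay above WT replicates 1 and 3, so the groups overlapped, and the exact permutation p was 0.143. By its edgeR p, *Nkd1* stood at rank 739 of the 17669 genes.

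The sequences before the start sites of *Axin2*, *Nkd1* and *Lef1* are shown because they are textbook targets of the TCF and LEF proteins, whose core letters are CTTTGA or CTTTGT. RefSeq promoter sequences on GRCm38.p6 were at hand for 6 of the 10 genes. The 250 bases before each start site were searched on both strands, and matches are in capitals. Of all 32851 promoters in the table, 27.6% held at least 1 match in this window, and of the 10 start sites of the 6 Wnt genes 3 did. The single start sites of *Axin2* (chr11:108920099-108920348, + strand) and *Nkd1* (chr8:88527383-88527632, + strand) had no match in the window, while 1 of the 4 start sites of *Lef1* (chr3:131156044-131156293, + strand) had 3. The sequences are given 5′ to 3′.
Axin2: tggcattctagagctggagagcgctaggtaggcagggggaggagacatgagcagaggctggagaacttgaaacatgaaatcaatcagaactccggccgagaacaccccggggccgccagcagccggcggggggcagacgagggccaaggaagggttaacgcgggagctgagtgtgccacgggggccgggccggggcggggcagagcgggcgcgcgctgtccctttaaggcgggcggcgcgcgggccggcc
Nkd1: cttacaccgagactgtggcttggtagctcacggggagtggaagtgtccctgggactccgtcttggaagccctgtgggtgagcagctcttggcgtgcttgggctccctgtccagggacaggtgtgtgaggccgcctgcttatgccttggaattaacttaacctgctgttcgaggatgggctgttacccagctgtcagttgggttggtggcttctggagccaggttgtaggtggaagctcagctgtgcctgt
Lef1: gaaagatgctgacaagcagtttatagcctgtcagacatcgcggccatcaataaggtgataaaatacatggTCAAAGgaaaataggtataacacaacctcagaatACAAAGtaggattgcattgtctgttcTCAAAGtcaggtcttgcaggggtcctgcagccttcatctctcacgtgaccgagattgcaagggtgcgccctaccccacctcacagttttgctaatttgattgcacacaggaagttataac
In *Lef1* the 3 matches begin 180, 146 and 120 bases before the start site. A match of these letters is a description of the sequence only.

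Sex was then taken into account, because it was labelled and not balanced over genotype. In the same edgeR fit with genotype and sex as terms, none of the 10 Wnt genes had an adjusted p under 0.1 between male and female mice, against 3.72% of all genes tested, while DESeq2 called 1, *Wnt7b* (adjusted p = 0.0832), against 7.71% of all genes. An unadjusted p under 0.05 was found for 3 of the 10, *Wnt7b*, *Tcf7l2* and *Axin2*, against 15.9% of all genes, or 2804 genes. *Wnt7b* had a mean of 36.1 ± 7.9 CPM in the 3 males and 27.8 ± 6.6 CPM in the 5 females, with a log2 fold change of 0.48 (SE 0.15, adjusted p = 0.184 in edgeR). *Axin2* had 19.97 ± 3.4 CPM in males and 16.8 ± 0.67 CPM in females, with a log2 fold change of 0.27 (SE 0.11, adjusted p = 0.309 in edgeR). Within the 5 females alone, 3 WT against 2 KO, edgeR called 0 of the 10 genes by genotype. The *Axin2* difference by sex was 0.07 without WT replicate 2, 0.24 without KO replicate 3 and -0.10 without both. *Tcf7l2* had 6.25 ± 2.3 CPM in males and 9.38 ± 3.9 CPM in females, with a log2 fold change of -0.75 (SE 0.30, adjusted p = 0.274 in edgeR). For *Wnt7a*, with 24.7 ± 8.0 CPM in males and 31.7 ± 2.6 CPM in females, the log2 fold change was -0.41 (SE 0.20, adjusted p = 0.359 in edgeR), and it was -0.09 without WT replicate 2, -0.35 without KO replicate 3 and 0.16 without WT replicate 2 and KO replicate 3. From the highest cortical sum to the lowest, the males were WT replicate 2, KO replicate 3 and KO replicate 1. In this order *Wnt7a* was at 17.9, 22.9 and 33.5 CPM and *Axin2* at 23.2, 20.4 and 16.4 CPM. *Wnt7b* was at 44.6, 34.7 and 28.9 CPM and *Tcf7l2* at 4.62, 8.83 and 5.29 CPM. KO replicate 1 lay within the range of the females for *Wnt7a*, *Axin2* and *Wnt7b* and below it for *Tcf7l2*. Without KO replicate 1, *Wnt7a* (log2 fold change -0.64, adjusted p = 0.0438) and *Axin2* (0.37, adjusted p = 0.0749) passed the threshold in edgeR, as did 8.14% of all genes. The part of cortical tissue in these values was not tested.

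**Figure D2:**
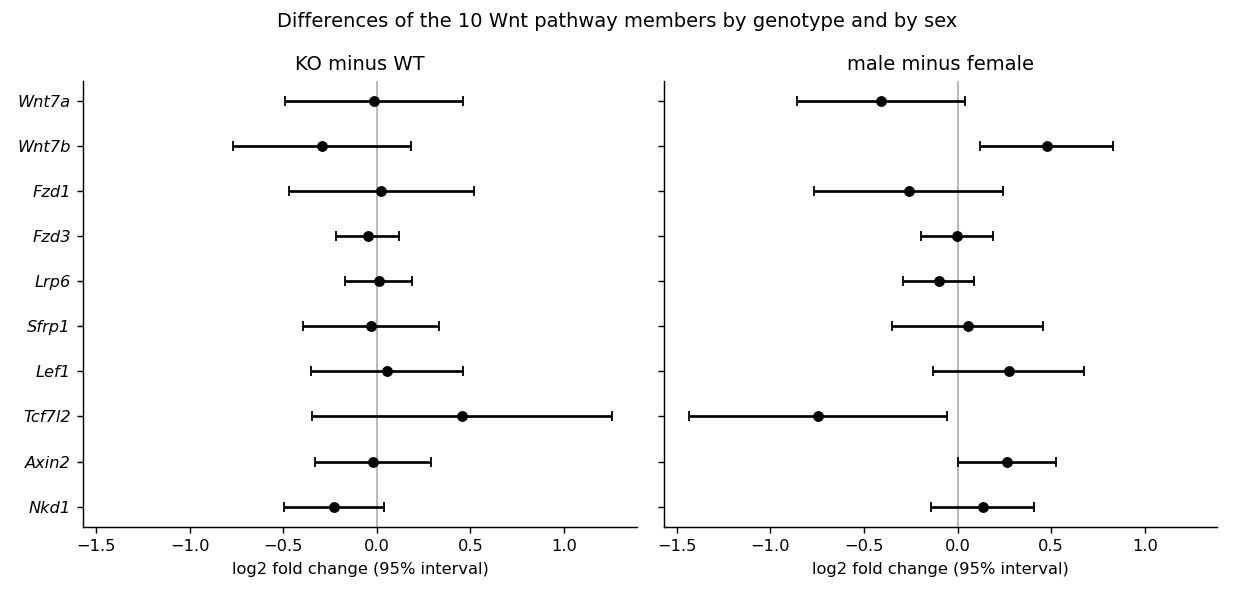
Log2 fold changes of the 10 Wnt genes, KO minus WT on the left (no covariate) and male minus female on the right (genotype in the model), as points with 95% intervals on the same axis. All intervals include 0 for genotype, from -0.29 for *Wnt7b* to 0.45 for *Tcf7l2*, and for sex those of *Wnt7b*, *Tcf7l2* and *Axin2* do not, before adjustment.

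**Figure D3:**
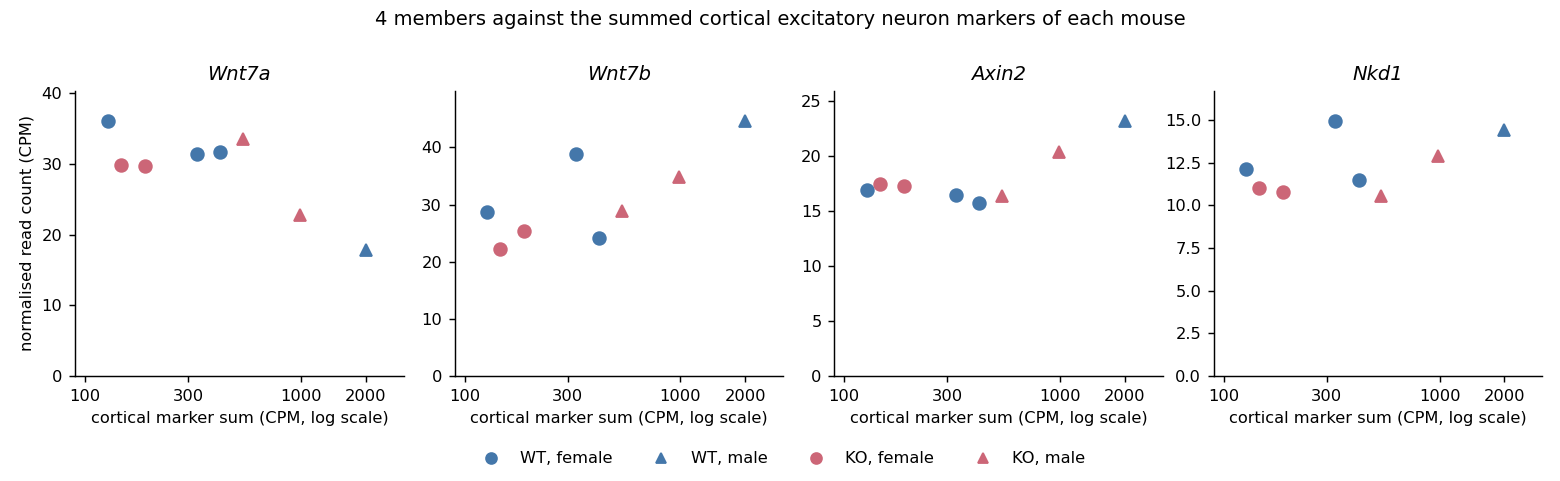
Normalised read counts (CPM, linear axis from 0) of *Wnt7a*, *Wnt7b*, *Axin2* and *Nkd1* in each mouse against the summed CPM of 10 cortical excitatory neuron markers (log axis); colours give genotype, triangles males and circles females. The 2 mice farthest right, KO replicate 3 and WT replicate 2, are the lowest for *Wnt7a* (22.9 and 17.9 CPM) and the highest for *Axin2* (20.4 and 23.2 CPM).

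How the 10 genes varied together over the 8 mice was examined by the correlation of log2 CPM for all 45 pairs, with exact permutation p-values. No pair had an adjusted p under 0.1 for Pearson's r or for Spearman's rho. The largest was between *Wnt7a* and *Axin2* (r = -0.95, exact permutation p = 0.00486, adjusted p = 0.124; rho = -0.81, exact permutation p = 0.0218, adjusted p = 0.490, n = 8). This relation rests on WT replicate 2 and KO replicate 3, as r was -0.32 without them. *Wnt7b* and *Nkd1* followed, with r = 0.88 (exact permutation p = 0.00553, adjusted p = 0.124) and rho = 0.67 (exact permutation p = 0.0831, adjusted p = 0.777). Here r was 0.65 without WT replicates 2 and 4, the mice farthest from the median of *Wnt7b*, and 0.82 without WT replicate 2 and KO replicate 3. For the ligands *Wnt7a* and *Wnt7b*, r was -0.64 (exact permutation p = 0.0799, adjusted p = 0.514) and rho -0.36 (exact permutation p = 0.389, adjusted p = 0.777), and r was 0.31 without WT replicate 2 and KO replicate 3.

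Of the genes tested, 14452 had a mean of at least 1 CPM, the Wnt genes themselves among them. With the Wnt genes left out, the ones most like each of them over the 8 mice were found by Pearson's r of log2 CPM, as a description. *Wnt7a* was most like *D430019H16Rik* and the protocadherin *Pcdhga4* (r = 0.99 each), and *Wnt7b* most like *Trmt1* and *Col27a1* (0.99 and 0.98). *Axin2* was most like *Rras2* (0.99), *Nkd1* like *Usp19* (0.98), *Fzd3* like *Ermn* (0.99), a gene of myelinating oligodendrocytes, and *Lrp6* like *Sytl5* (0.97). For *Fzd1*, *Sfrp1*, *Tcf7l2* and *Lef1* the most alike genes were *Zfp956* (0.97), *Hapln3* (0.96), *Zfp758* (0.95) and *Gm37111* (0.95). None of the genes named here is a Wnt pathway gene of the lists used below.

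To compare levels between genes, TPM values were used, which allow for transcript length. The order of mean TPM was *Wnt7b* (15.4 ± 5.0, SD over 8 mice), *Lrp6* (14.3 ± 1.5), *Fzd3* (13.9 ± 1.5), *Wnt7a* (13.0 ± 1.9), *Sfrp1* (9.12 ± 1.5), *Axin2* (7.82 ± 2.0), *Nkd1* (7.24 ± 1.6), *Tcf7l2* (3.74 ± 1.8), *Fzd1* (3.14 ± 0.90) and *Lef1* (1.57 ± 0.30). Of the 9 neighbouring pairs in this order, 3 differed in an exact two-sided sign-flip permutation test over the mice, each with an adjusted p of 0.0469. These were *Wnt7a* over *Sfrp1* and *Nkd1* over *Tcf7l2*, each in 7 of 8 mice, and *Fzd1* over *Lef1* in 8 of 8 mice. The other 6 neighbours did not differ beyond their spread by this test, and no order among *Wnt7b*, *Lrp6*, *Fzd3* and *Wnt7a* could be given. The first place of *Wnt7b* came from 3 mice, WT replicates 2 and 4 and KO replicate 3, at 24.1, 21.7 and 17.5 TPM, while the other 5 lay between 11.4 and 12.5 TPM.

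**Figure D4:**
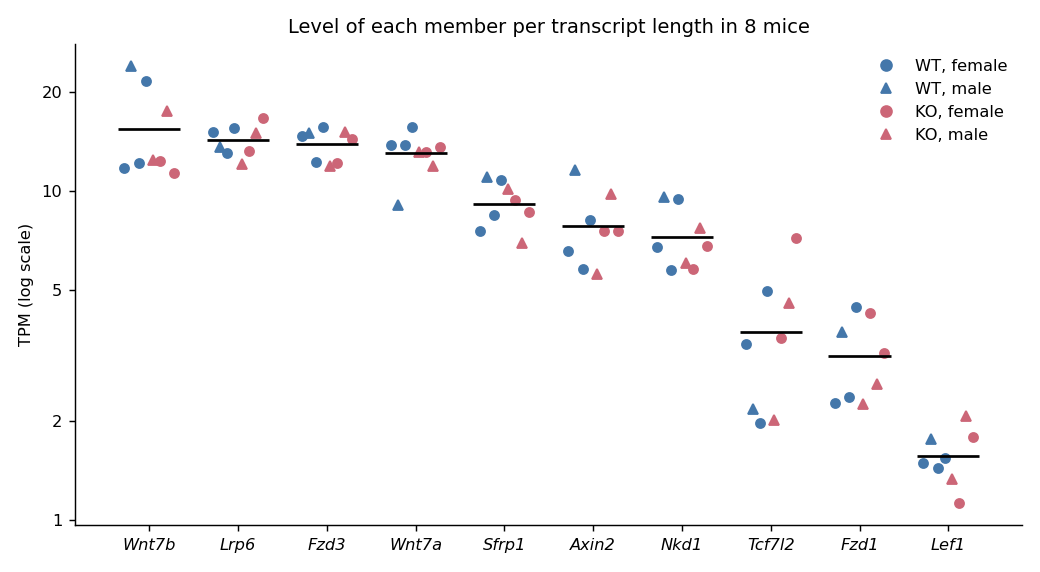
TPM (log axis) of each Wnt gene in the 8 mice, ordered by mean TPM, with the mean as a line; colours give genotype, triangles males and circles females. Mean TPM falls from 15.4 for *Wnt7b* to 1.57 for *Lef1*, and the ranges of the first 4 genes overlap.

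The transcripts that carried these levels were read from the transcript estimates, as shares of each gene's TPM and without a test. *Fzd1*, *Fzd3* and *Sfrp1* each came from 1 transcript in all mice, Fzd1-201, Fzd3-202 and Sfrp1-201. *Wnt7a* came from Wnt7a-201 in 7 mice, and in KO replicate 3 the short non-coding Wnt7a-203 was given 10.7% of TPM but few reads. *Wnt7b* was divided between Wnt7b-202 (43.5% ± 5.8, SD, n = 8) and Wnt7b-204 (41.3% ± 6.0), and the shares of Wnt7b-202 were 40.5% ± 6.3 in WT and 46.5% ± 3.8 in KO mice. *Axin2* came mostly from Axin2-201 (71.6% ± 6.3), *Tcf7l2* from Tcf7l2-209 (52.2% ± 5.7) and *Nkd1* from Nkd1-203 (43.4% ± 7.2) and Nkd1-201 (42.9% ± 6.4). For *Lrp6*, the full-length Lrp6-201 of 9368 bases took 92.4% of the reads but 44.7% of the TPM, since Lrp6-205, a retained-intron transcript of 941 bases, took 40.5% of the TPM from 5.90% of the reads. The TPM place of *Lrp6* therefore includes a large share from short transcripts. *Lef1* varied most, with Lef1-201 at between 29.7% in KO replicate 4 and 94.3% in WT replicate 2. Lef1-203 was given 36.0% in WT replicate 1 and 35.0% in KO replicate 4 and 0% in the other 6 mice, and at the low counts of *Lef1* such shares are uncertain.

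The remaining Wnt pathway was followed through 96 other genes in 8 lists by role, of which 88 were tested. None was differentially expressed between KO and WT mice in edgeR, in a fit that also did not call the targeted gene *Lrig1* (adjusted p = 0.286). DESeq2 called 0 without and 2 with sex as a covariate, both from the list of extracellular inhibitors and both lower in KO mice. They were *Dkk3* (log2 fold change -0.80, adjusted p = 0.000935) and *Dkkl1* (-1.55, adjusted p = 0.0163), beside 1.13% of all genes called in that fit. WT replicate 2, the mouse of the highest cortical markers, had the most *Dkk3* and *Dkkl1*. Among the females, *Dkk3* was at 131.4, 159.1 and 133.1 CPM in WT and at 102.5 and 92.3 CPM in KO mice. *Dkkl1* was at 2.90, 0.70 and 1.24 CPM in WT females and at 0.66 and 0.41 CPM in KO females. The part of cortical tissue in these values was not tested. With sex as a covariate, edgeR called 0. In edgeR without it there were 2 genes at an unadjusted p under 0.05, which is 2.27% of the 88 against 1.88% of all genes, and no gene whose groups did not overlap. Both were lower in KO mice and both stood in the list of extracellular inhibitors. *Kremen1*, a Dickkopf receptor, was at 23.2, 21.0, 25.6 and 22.2 CPM in WT and at 21.4, 16.8, 19.9 and 18.7 CPM in KO mice (log2 fold change -0.26, SE 0.10, adjusted p = 0.9998 in edgeR). Only KO replicate 1 reached the WT range. *Notum*, an enzyme that removes the lipid from Wnt proteins and is itself a Wnt target, was at 1.76, 1.36, 3.26 and 2.94 CPM in WT and at 1.54, 1.27, 1.48 and 1.64 CPM in KO mice (log2 fold change -0.65, SE 0.28, adjusted p = 0.9998 in edgeR). The KO mice lay close together and WT replicate 2 lay among them.

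The 2 genes of highest level in each list were then read, and none of these 16 genes had an unadjusted genotype p under 0.05 in edgeR. Among ligands they were *Wnt2* (7.56 ± 2.4 TPM, SD, n = 8) and *Wnt4* (2.63 ± 1.9 TPM), with log2 fold changes in CPM of 0.33 and -0.23. For secretion they were *Porcn*, which attaches the lipid to Wnt proteins (25.2 ± 3.3 TPM, log2 fold change -0.15), and *Wls*, their carrier (15.3 ± 4.0 TPM, -0.14). The receptors *Ryk* (17.5 ± 1.1 TPM) and *Tspan12* (14.5 ± 1.4 TPM) had log2 fold changes of 0.05 and -0.02. In the list of inhibitors, *Dkk3* was the highest (71.2 ± 46.7 TPM, log2 fold change -0.65, SE 0.37) and *Apcdd1* next (10.6 ± 3.0 TPM, -0.10). *Ctnnb1*, the gene of β-catenin, was at 249.2 ± 18.0 TPM (log2 fold change 0.05, SE 0.08), and *Gsk3a* at 142.1 ± 21.7 TPM (-0.08). The receptor ligases *Znrf3* (3.10 ± 0.35 TPM) and *Rnf43* (1.02 ± 0.12 TPM) had log2 fold changes of 0.05 and 0.07. *Tle4* and *Tle1*, corepressors that bind TCF and LEF proteins, were at 36.2 ± 2.2 and 26.6 ± 2.7 TPM (log2 fold changes -0.01 and -0.05). The targets *Tnfrsf19* and *Ccnd1*, the gene of cyclin D1, were at 30.0 ± 5.0 and 13.6 ± 2.2 TPM (log2 fold changes -0.24 and 0.12).

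Of the 8 lists, the 12 tested ligands divided evenly, 6 higher and 6 lower in KO mice. The 7 genes of secretion and agonists were 1 higher and 6 lower, the 18 receptors 8 and 10, the 14 inhibitors 5 and 9, the 2 receptor ligases 2 and 0, the 20 cytoplasmic transducers 7 and 13, the 11 nuclear factors 4 and 7 and the 10 other targets 6 and 4, in fitted sign alone. Of all 88 genes 35 were higher and 53 lower, beside 8786 and 8883 of all genes tested. The medians of the lists lay between -0.14, for secretion and agonists, and 0.06, for the receptor ligases. There were 8 genes that did not pass the filter on low counts, the ligands *Wnt1*, *Wnt3a*, *Wnt8a*, *Wnt9b* and *Wnt16* and the inhibitors *Dkk1*, *Dkk4* and *Sost*. The highest count of any of them in a mouse was 30, for *Wnt16*, and *Dkk4* had 0 counts in all 8 mice.

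By sex, 9 of the 88 pathway genes passed the threshold, all higher in males, which is 10.2% against 3.72% of all genes. They were the ligands *Wnt9a* and *Wnt10a*, the agonists *Rspo2* and *Rspo3*, the receptor *Fzd10* and the Dishevelled-binding *Dact2*. From the list of inhibitors they were *Frzb*, *Dkk3* and *Dkkl1*. *Wnt9a*, *Wnt10a*, *Rspo3*, *Fzd10* and *Frzb* were named after their values by sex had been seen. *Wnt9a* was at 21.6 CPM in WT replicate 2, 8.03 in KO replicate 3, 3.81 in KO replicate 1 and between 0.66 and 3.14 CPM in the 5 females (log2 fold change 2.79, adjusted p = 0.0369 in edgeR). *Dkk3* was at 386.0 CPM in WT replicate 2, 166.0 in KO replicate 3, 155.9 in KO replicate 1 and between 92.3 and 159.1 CPM in the females (1.05, adjusted p = 0.0245). *Dkkl1* was at 16.3, 7.34 and 4.59 CPM in the same males and between 0.41 and 2.90 CPM in the females (3.41, adjusted p = 0.0148). In these 3 genes the males stood in the order of their cortical marker sums, as in the others of the 9 except *Dact2*. *Dact2* was at 93.3 CPM in WT replicate 2, 61.3 in KO replicate 3 and 69.2 in KO replicate 1. For *Dkk3* the female at 159.1 CPM, WT replicate 3, had the lowest cortical sum (127.3 CPM). Without WT replicate 2 none of the 9 passed the threshold, beside 10 of all genes (0.056%) in place of 657. Without KO replicate 3, *Dact2*, *Dkk3* and *Dkkl1* did, beside 59 of all genes (0.33%). All 10 cortical markers were higher in the males and 7 of them passed the threshold, and the part of cortical tissue in the 9 genes was not tested.

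**Figure D5:**
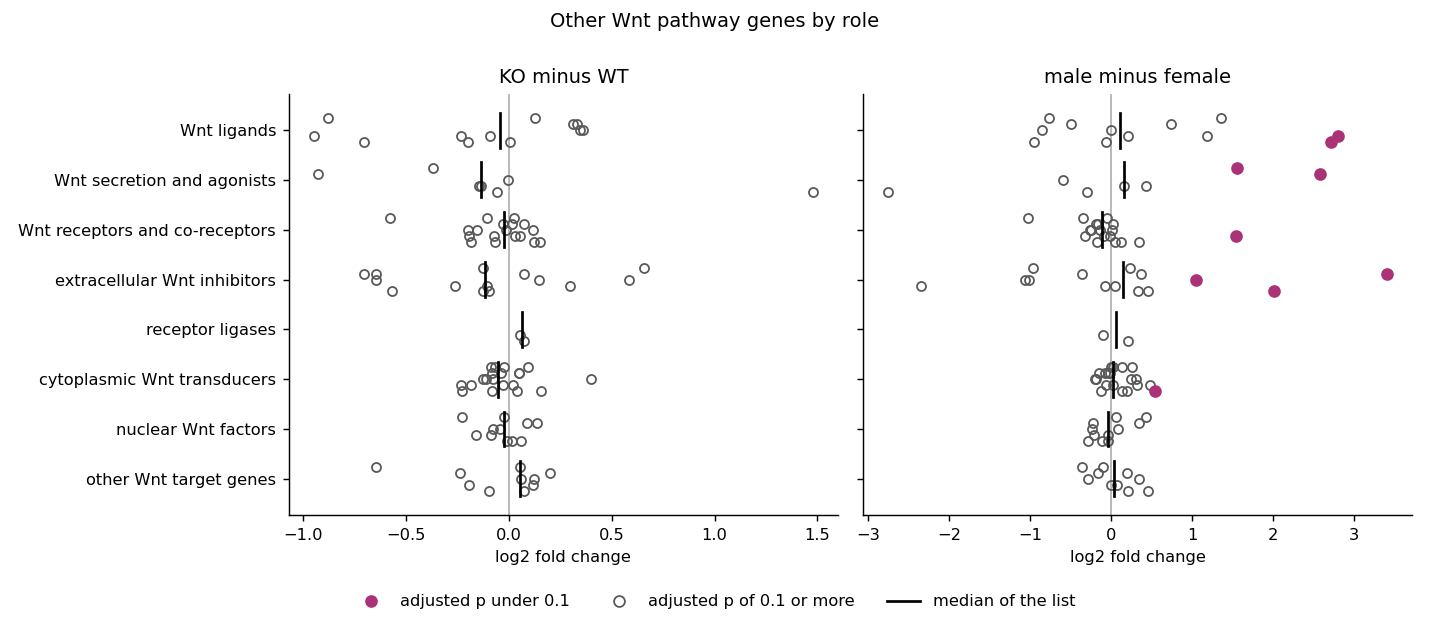
Log2 fold changes of the 88 tested pathway genes by role list, KO minus WT on the left and male minus female on the right, on axes of different ranges; filled points have an adjusted p under 0.1, lines are list medians, and 6 genes stand in 2 lists. No gene is filled for genotype and 9 are for sex, all to the right of 0.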

How the data were processed

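Periventricular RNA of 8 mice was sequenced by the authors, who quantified transcripts of Gencode M29 (mouse GRCm39) with Salmon. They deposited unnormalised estimated counts for genes, and estimated counts, TPM and lengths for transcripts. How transcripts were summed to genes is not given in the sources used here. Names were found for 94.8% of the gene identifiers. Transcripts were matched by identifier to Gencode M21 of GRCm38, which matched 100% of the counts of the 10 genes.

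Estimated counts were rounded and compared by the quasi-likelihood test of edgeR 4.0.16 (R 4.3.3) after filterByExpr and TMM scaling, with p-values adjusted by Benjamini-Hochberg over 17669 genes. SEs are the size of the log2 fold change over the square root of F. Permutation tests used log2(CPM + 0.1), or log2 TPM with nothing added for the sign-flip test. They were run in SciPy 1.17.1, apart from those of correlations, which went through all orders of the mice. The edgeR fit without covariates was tested on simulated counts, and the other fits were not. Alternatives were DESeq2 1.42.0 (with or without sex, or its size factors in edgeR), no filter, 10 counts in every mouse, sex or replicate number as a covariate, females only, limma 3.58.1 on log2(TPM + 0.1), and each mouse left out. Leaving out WT replicate 2 and KO replicate 3 together was chosen after seeing the data.

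The 10 genes and all lists were chosen with earlier results of these data known. Other pathway genes were named by rule, when the genotype p was under 0.05, when groups did not overlap, when they stood in the study's table of called genes, or as the 2 of highest TPM of a list. *Wnt9a*, *Wnt10a*, *Rspo3*, *Fzd10* and *Frzb* were named for their sex values, after these had been seen. The rule for like genes took the 3 of highest Pearson's r for each Wnt gene, of which the first 1 or 2 are printed.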

Additional observations from a re-analysis of the deposited data

Results flagged for a closer look

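In 224 groups of 4 mice, 17 (7.59%) had 1 mouse far from the other 3 by Dixon's criterion at 95%, where chance gives about 1 in 20. Of the 10 Wnt genes, 2 were among them. *Sfrp1* was at 24.6 CPM in WT replicate 1, with the nearest other WT mouse at 30.6 CPM. *Axin2* was at 23.2 CPM in WT replicate 2, with the next at 16.9 CPM.

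WT replicate 2 was also the mouse set apart for *Wnt4* (18.1 CPM), *Wnt9a* (21.6), *Wnt10a* (9.08), *Wls* (40.6), *Frzb* (29.2), *Dkk3* (386.0), *Dkkl1* (16.3) and *Gsk3a* (251.7), each the highest of the 4 WT mice, and for *Ctnnb1* (483.6), the lowest. The summed cortical excitatory neuron markers of this mouse (1996 CPM) met the same criterion, with 421.5 CPM in the next WT mouse, and the part of cortical tissue in these genes was not tested.

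The other mice set apart were WT replicate 1 for *Wnt10b* (0.126 CPM) and *Ccnd1* (26.7 CPM), both low, WT replicate 4 for *Fzd8* (7.05 CPM) and for the summed oligodendrocyte precursor markers (612.6 CPM), both high, and KO replicate 1 for *Lgr4* (25.8 CPM), low.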

How the results depend on the processing

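No alternative called any of the 10 Wnt genes by genotype. Of their 180 alternative log2 fold changes by genotype 29 changed sign, and of 130 by sex 12 did, none past the threshold. By genotype, signs turned with sex as a covariate for *Wnt7a* (0.13) and *Lef1* (-0.026), in DESeq2 with sex for *Wnt7a* (0.12) and *Lef1* (-0.025), with the replicate block for *Wnt7a* (0.019), in limma on TPM for *Wnt7a* (0.012), *Fzd1* (-0.032), *Lrp6* (-0.014) and *Lef1* (-0.012), in females only for *Lrp6* (-0.040), *Lef1* (-0.13) and *Axin2* (0.087). With 1 mouse, or both WT replicate 2 and KO replicate 3, left out, values by genotype ranged from -0.19 to 0.10 for *Wnt7a*, -0.17 to 0.17 for *Fzd1*, -0.047 to 0.043 for *Lrp6*, -0.17 to 0.11 for *Sfrp1*, -0.091 to 0.18 for *Lef1* and -0.088 to 0.12 for *Axin2*. By sex, signs turned with 10 counts in every mouse for *Fzd3* (0.00083). With 1 mouse, or both WT replicate 2 and KO replicate 3, left out, values by sex ranged from -0.64 to 0.16 for *Wnt7a*, -0.072 to 0.079 for *Fzd3*, -0.17 to 0.019 for *Lrp6*, -0.14 to 0.36 for *Sfrp1*, -0.095 to 0.37 for *Axin2* and -0.053 to 0.20 for *Nkd1*. The cause was not tested. With sex as a covariate *Wnt7b* had a log2 fold change of -0.41 by genotype (adjusted p = 0.653 in edgeR).

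Over all genes, 1 was called by genotype, 2 without a filter, 0 with 10 counts in every mouse, 2 with sex as a covariate, 12 in DESeq2, 201 in DESeq2 with sex, 3 in females only, 0 to 3 with 1 mouse left out (0 without WT replicate 1 or 4, 2 without WT replicate 3 and 3 without WT replicate 2) and 0 without both WT replicate 2 and KO replicate 3. The replicate block gave 0. Deviations of same-numbered mice correlated between -0.28 and 0.33, which gave no sign that the numbers pair the mice and cannot exclude it. Of the other pathway genes DESeq2 with sex called 2 by genotype. By sex, the 10 Wnt genes gave 0 calls, 1 without a filter, 1 in DESeq2 and 0 to 2 with 1 mouse left out (2 without KO replicate 1). The other pathway genes gave 9, 15 without a filter, 17 in DESeq2, 0 to 16 with 1 mouse left out (0 without WT replicate 2, 3 without KO replicate 3 and 16 without KO replicate 1) and 0 without both mice. *Lef1* had the fewest counts of the 10, at most 368 per mouse, and *Tcf7l2* the largest SE (0.35), and the difference seen for *Tcf7l2* (0.45) could not be told from 0.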
